A study of Mus musculus with 8 samples.

Results

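The chemokines and chemokine receptors of the mouse were followed across the cell types of the aged ascending thoracic aorta. Members were taken by gene symbol: CC, CXC, CX3C and XC ligands and receptors, and the atypical receptors Ackr2, Ackr3 and Ackr4. A few CXC ligands were not analysed here. The rule found 63 of the 32285 measured genes, with 57 different symbols, of which 36 were ligands, 18 were signalling receptors and 3 were atypical receptors. UMIs (unique molecular identifiers, each counting 1 captured RNA molecule) were found for 51 of the 57 symbols in the cells analysed, in 30 of 36 ligands, 18 of 18 receptors and 3 of 3 atypical receptors.

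Aortic cells came from 3 wildtype mice, aged 81, 84 and 88 weeks, and the comparisons here involve no younger, treated or mutant group. The animals' cells were marked with hashtag antibodies 1, 2 and 3 (barcoded antibodies that bind cell surfaces), pooled and sequenced as 4 gene expression libraries and 4 hashtag libraries. These 8 libraries are of 1 pool and are not animals, so the animal was the replicate and all comparisons were between cell types of the same animals. Enzymatic digestion with collagenase and elastase for 60 min at 37 °C preceded loading, and RNA induced during that step cannot be told apart from RNA present in the tissue.

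Chemokines are small secreted or membrane-held proteins that guide cells along gradients and hold them in niches. They act on G protein-coupled receptors of leukocytes and other cells, and atypical receptors bind them without the usual G protein signal and take them up. In arteries, ligands of this family are known for recruiting monocytes and T cells, and Cxcl12 also for retaining cells and supporting vessels.

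The count table held 142108011 gene UMIs in 26916 barcodes, with a median of 2975 and a range of 900 to 104654 per barcode. After filters, 10170 cells were clustered without use of the members, and all but 737 cells, in 31 mixed clusters, were given to 14 classes named from markers. The 4 large classes were T cell-like (1874 cells), endothelial-like (936), fibroblast-like (1225) and smooth muscle-like (4948). Exactly 1 hashtag was found on 4017 cells, 547, 2454 and 1016 from the animals of 81, 84 and 88 weeks. That share was uneven: 90.3% of the T cell-like class, 90.6% of the endothelial-like, 15.3% of the fibroblast-like and 12.5% of the smooth muscle-like, so the values by animal rest on a small part of the cells in the last 2 classes. The T cell-like values of the animal of 81 weeks rest on 32 cells, fewer than its 38 fibroblast-like and 140 smooth muscle-like cells. The T cell-like class held 791 double positive type cells, in clusters led by Rag1, Cd8b1 and Trbc2, and the epithelial-like class held a cluster led by Tbata, Cd74 and Prss16. Such cells are known from the thymus, the labels name the ascending aorta alone, and whether these cells came from the aorta or from adjoining tissue cannot be told apart in these data. The values of T cell-like and epithelial-like cells are therefore those of the digested sample, not of the aortic wall. RNA of T cell genes was present in 46.9% of smooth muscle-like, 47.3% of fibroblast-like and 40.3% of endothelial-like cells.

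Levels are given as CPM, a gene's UMIs scaled to counts per 1e6 UMIs of the summed cells. They are compared between cell types for 1 gene and not between genes. Of the 57 symbols, 16 reached 20 CPM in a class of at least 50 cells, 12 ligands and 4 receptors. Epithelial-like cells held the highest level of 6 of them, fibroblast-like cells of 4, T cell-like and chondrocyte-like cells of 2 each, and endothelial-like and smooth muscle-like cells of 1 each.

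**Figure D1:**
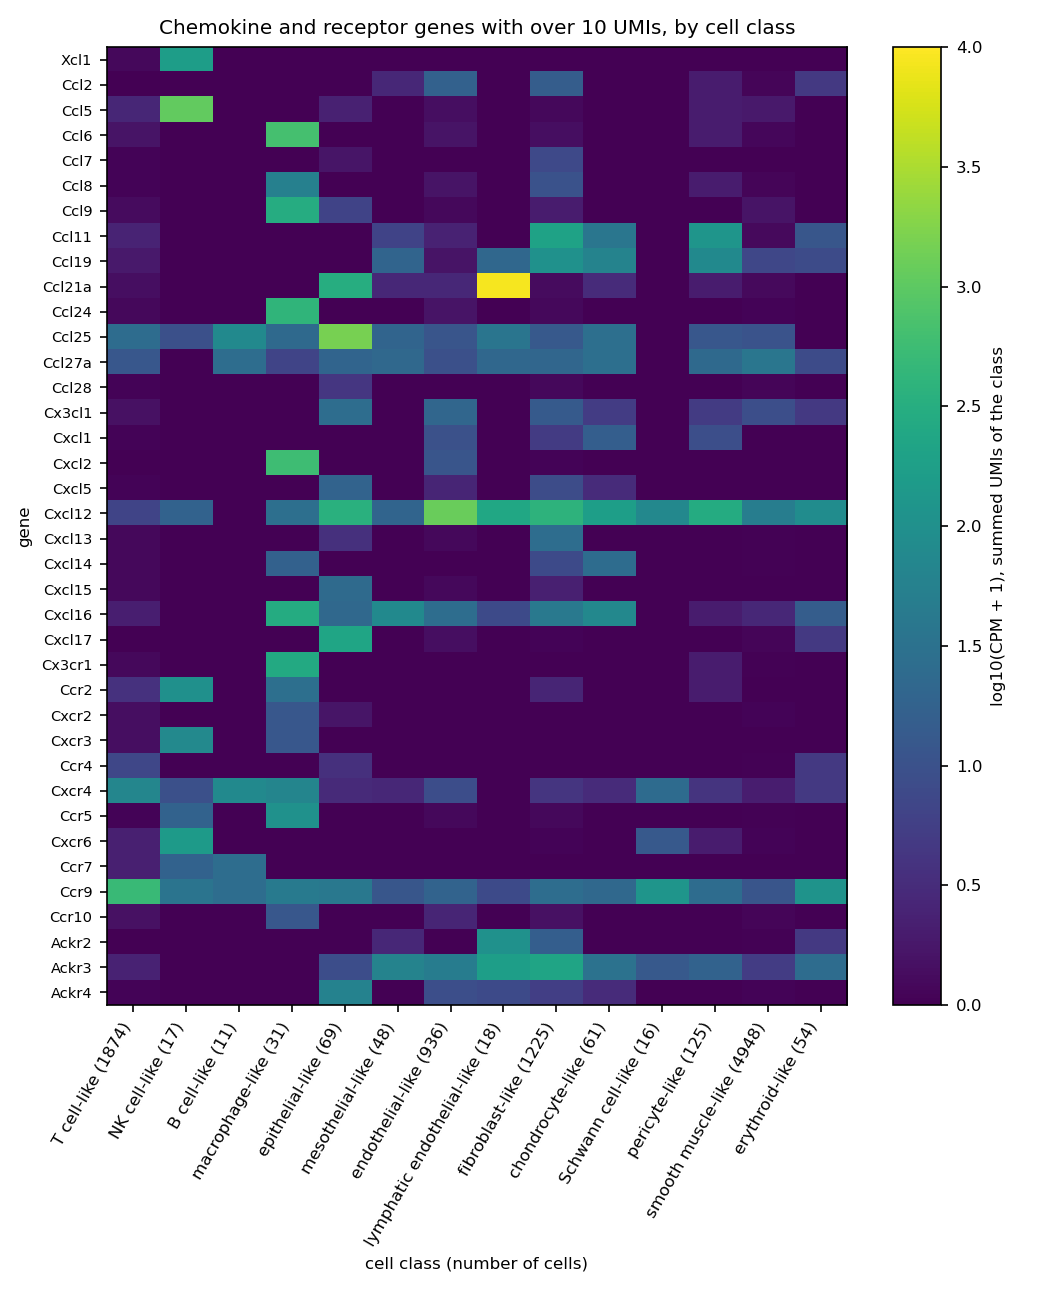
Levels of the genes with over 10 UMIs (rows) in the 14 cell classes (columns, number of cells in brackets), as log10(CPM + 1) of the summed UMIs. Cxcl12 was present in most classes and highest in endothelial-like cells among the classes of at least 50 cells, at 1235 CPM, and Ccl21a stood out in 18 lymphatic endothelial-like cells, at 8721 CPM.

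Cxcl12, the ligand of Cxcr4 and Ackr3, was highest in endothelial-like cells, lower in fibroblast-like cells and lower again in smooth muscle-like cells. In the animals of 81, 84 and 88 weeks it had 1384, 1440 and 902 CPM in endothelial-like cells, against 201, 265 and 298 CPM in the fibroblast-like class and 43.3, 46.9 and 58.1 CPM in the smooth muscle-like class. No animal's value overlapped between these classes. The log2 fold change was 2.30 ± 0.18 (SE) for endothelial-like over fibroblast-like cells (adjusted p = 2.1e-08) and 4.55 ± 0.18 for endothelial-like over smooth muscle-like cells (adjusted p = 3.8e-10), by edgeR's quasi-likelihood test with the animal as a block and Benjamini-Hochberg adjustment over all genes. Fibroblast-like over smooth muscle-like cells gave 2.25 ± 0.13 (adjusted p = 7.3e-25). T cell-like cells had 19.4, 5.17 and 5.03 CPM, against the endothelial values above, a log2 fold change of -8.06 ± 0.18.

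Counts of called members are read against all genes of the same comparison, where a call needs an adjusted p under 0.05 and at least a 2-fold change. Between fibroblast-like and smooth muscle-like cells, 7 of 10 tested members were higher and 0 lower in fibroblast-like cells, where 13.1% of 9526 genes were higher and 10.8% lower. Between endothelial-like and smooth muscle-like cells, 4 of 8 were higher and 1 lower, where 16.3% of 10106 genes were higher and 16.7% lower. Between endothelial-like and fibroblast-like cells, 2 of 10 were higher and 5 lower, where 13.8% of 9045 genes were higher and 15.5% lower. Between T cell-like and endothelial-like cells, 3 of 8 were higher and 4 lower, where 21.5% of 10379 genes were higher and 26.3% lower. Members reached a test only where their counts were high enough in a class, so these counts describe the tested members and not the family.

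**Figure D2:**
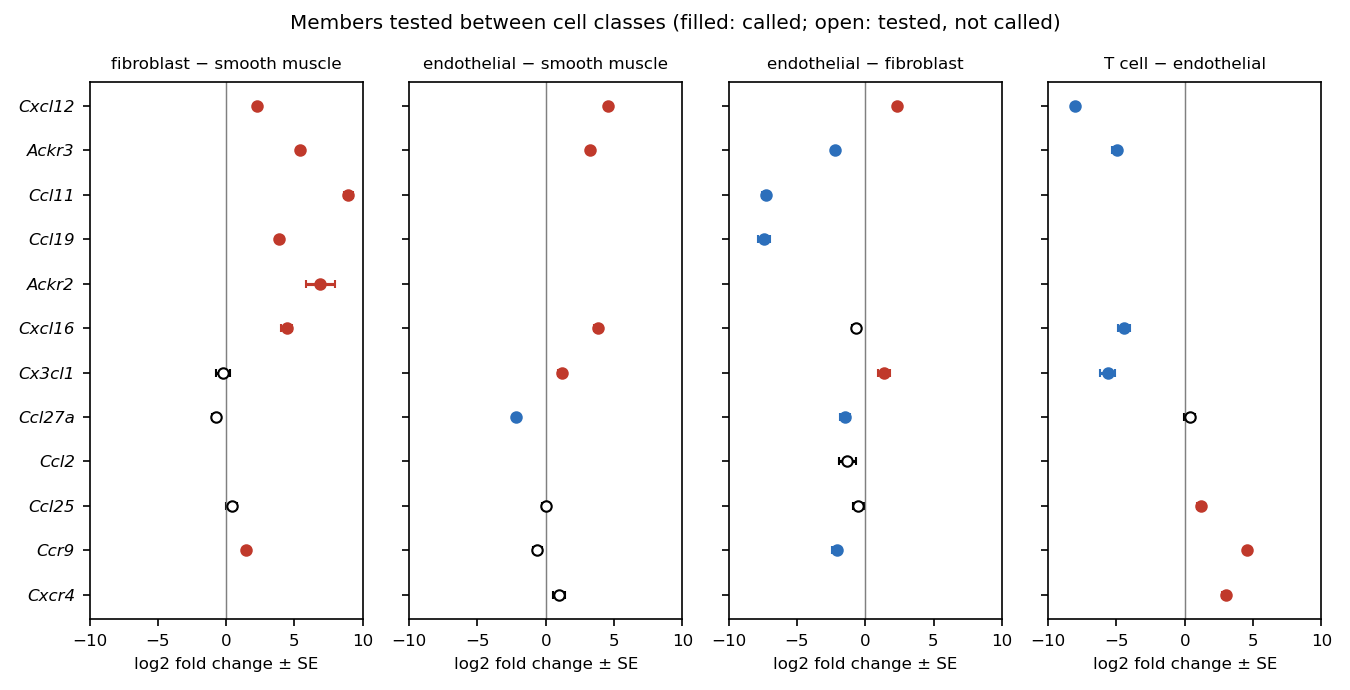
Log2 fold change ± SE of the tested members in the 4 comparisons of cell classes, filled where called and open where tested and not called. Cxcl12 ranged from -8.06 for T cell-like over endothelial-like cells to 4.55 for endothelial-like over smooth muscle-like cells.

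The endothelial-like class was not uniform for Cxcl12. Capillary type cells had 1038, 1384 and 1074 CPM, against 2345, 3158 and 2455 CPM in arterial type cells, with no overlap. The log2 fold change of capillary over arterial type cells was -1.14 ± 0.13 (adjusted p = 5.4e-17 by edgeR). In this comparison 2 of 2 tested members were lower, where 2.89% of 4295 genes were higher and 4.28% lower. Large vessel type cells had 53.6, 72.8 and 223 CPM, against the capillary values above, with a log2 fold change of -3.29 ± 0.28 (adjusted p = 2.4e-11). In each animal the large vessel type was also below the fibroblast-like value given above, a difference that was not tested. The order of the classes thus does not hold for this type. The large vessel type rests on 17, 17 and 32 cells of the 3 animals, and the arterial type on 17, 20 and 14.

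Ackr3, the atypical receptor that binds and takes up Cxcl12, was highest in fibroblast-like cells. It had 254, 251 and 146 CPM in fibroblast-like cells, against 4.09, 3.97 and 5.66 CPM in smooth muscle-like cells, a log2 fold change of 5.41 ± 0.21 (adjusted p = 2.2e-35 by edgeR). Endothelial-like cells had 44.4, 32.6 and 65.1 CPM, against the fibroblast values, with a log2 fold change of -2.21 ± 0.25 (adjusted p = 1.5e-06), and 3.25 ± 0.22 over smooth muscle-like cells (adjusted p = 7.3e-08). T cell-like cells had 0, 1.33 and 1.68 CPM, against the endothelial values (-4.99 ± 0.34, adjusted p = 7.7e-48). The ranges of these classes did not overlap. Its UMIs were spread over 713 fibroblast-like cells, with at most 14 of 2058 in 1 cell.

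Between large vessel and capillary type cells Ackr3 differed in the opposite direction to Cxcl12. Large vessel type cells had 122, 194 and 207 CPM of Ackr3, against 11.4, 10.2 and 7.99 CPM in capillary type cells, a log2 fold change of 4.22 ± 0.32 (adjusted p = 2.0e-12 by edgeR). Arterial type cells had 88.5, 22.6 and 13.1 CPM on 8, 3 and 1 UMIs, and Ackr3 was not tested against them. Of 4 members tested in this comparison 3 were higher and 1, Cxcl12, lower, where 13.1% of 5914 genes were higher and 12.3% lower.

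Cxcr4, the signalling receptor of Cxcl12, was found mostly in T cell-like cells. It had 77.7, 69.9 and 62.0 CPM in T cell-like cells, against 5.86, 6.74 and 9.05 CPM in endothelial-like cells, and the classes did not overlap (log2 fold change 3.00 ± 0.25, adjusted p = 2.2e-32 by edgeR). Endothelial-like cells, against 2.34, 5.56 and 2.26 CPM in smooth muscle-like cells, gave 0.96 ± 0.42, which did not pass (adjusted p = 0.069). Small leukocyte classes also held Cxcr4. It had 66.3 CPM in 31 macrophage-like cells (12 UMIs) and 77.8 CPM in 11 B cell-like cells (3 UMIs), against 67.4 CPM in T cell-like cells. In 17 NK cell-like cells it was lower, at 8.39 CPM (1 UMI, 95% counting interval 0.212 to 46.7).

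**Figure D3:**
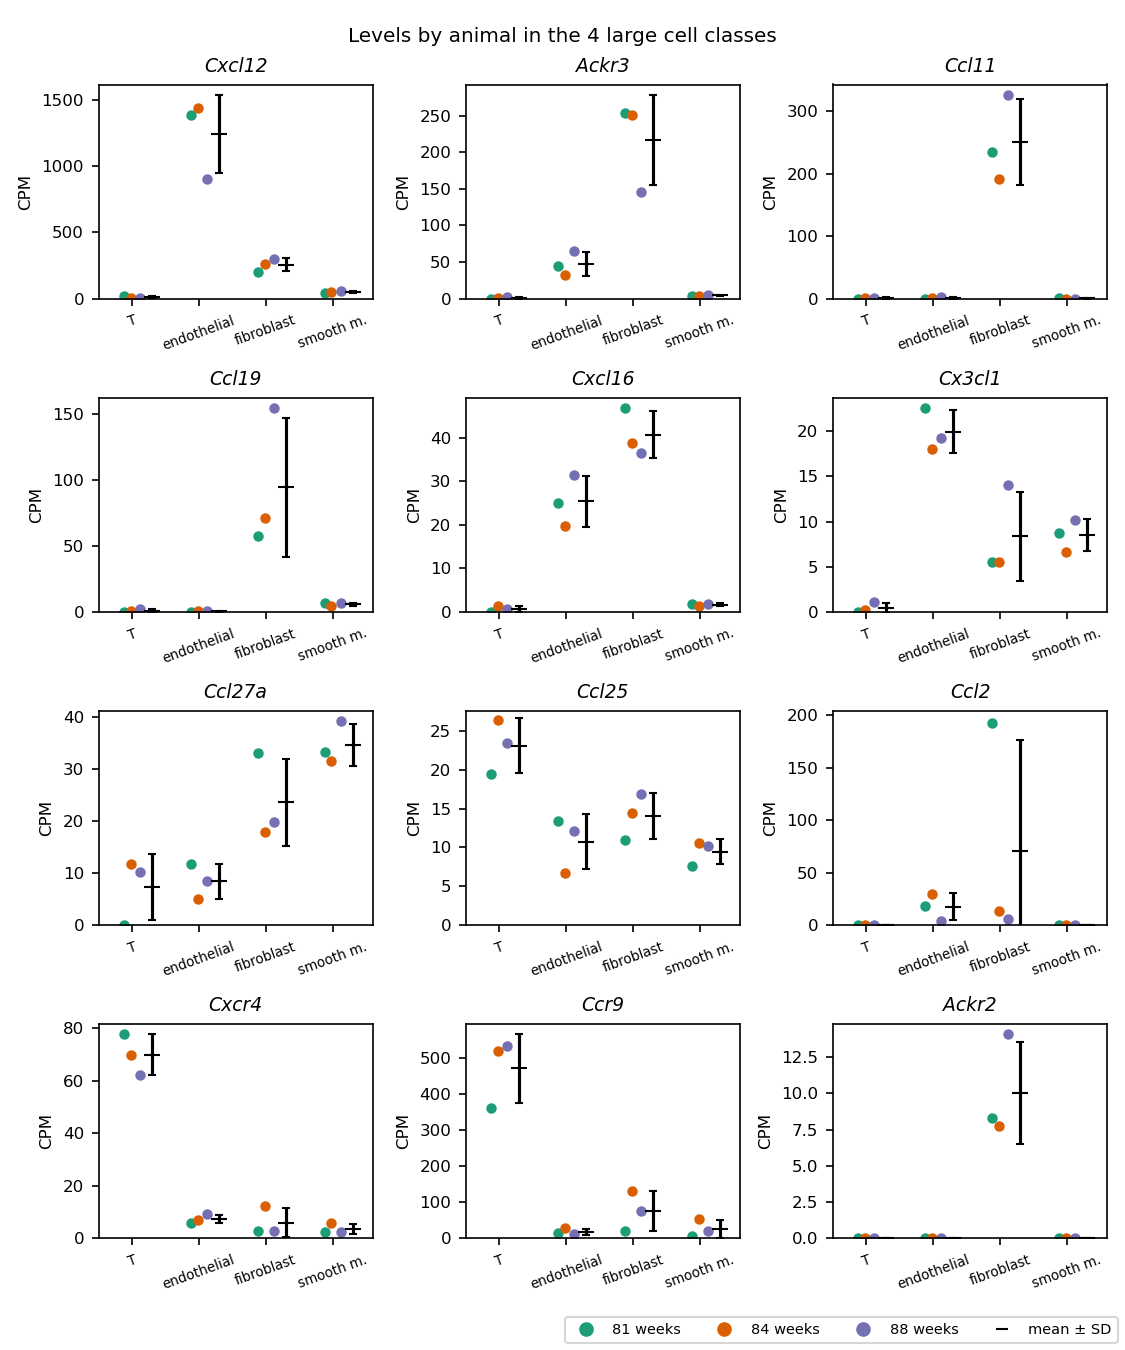
Levels (CPM) of 12 members in the 4 large cell classes, with 1 point per animal and the mean ± SD of 3 animals. Ackr3 lay between 146 and 254 CPM in fibroblast-like cells, above the 3.97 to 5.66 CPM of smooth muscle-like cells.

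Ccl11 (eotaxin, a ligand of Ccr3) was highest in fibroblast-like cells. It had 234, 191 and 326 CPM in fibroblast-like cells, against 1.17, 0.265 and 0 CPM in smooth muscle-like cells. The smooth muscle values rest on 2, 1 and 0 UMIs, and the ratio of pooled counts was 625, with a 95% counting interval of 212 to 3044. Endothelial-like cells had 0, 1.12 and 3.02 CPM, against the fibroblast values, a log2 fold change of -7.25 ± 0.31 (adjusted p = 8.6e-12 by edgeR). The receptor Ccr3 had 2 UMIs in all cells analysed. Fibroblast clusters of at least 20 cells ranged from 0 to 1003 CPM of Ccl11, and the highest was a cluster of 54 cells led by Igfbp6 and Apod.

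Ccl11 lies on chromosome 11 (mm10, 82057832 to 82062955) in a run of CC ligand genes with Ccl2, Ccl7, Ccl12, Ccl8 and Ccl1. Its neighbours differed in these cells. Ccl12 had 1 UMI and Ccl1 had 0. Ccl7 had 5.51, 14.4 and 0 CPM and Ccl8 had 2.76, 11.1 and 42.2 CPM in fibroblast-like cells.

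Ccl2, the monocyte attractant that acts on Ccr2, came from few cells. Endothelial-like cells had 18.4, 29.8 and 4.22 CPM, against 193, 13.3 and 5.62 CPM in fibroblast-like cells, and the difference did not pass (log2 fold change -1.30 ± 0.59, adjusted p = 0.093 by edgeR). Of its 135 UMIs in fibroblast-like cells 69 were in 1 cell of the animal of 81 weeks, and of its 83 UMIs in endothelial-like cells 53 were in 1 cell of the animal of 84 weeks.

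Ccl19, a ligand of Ccr7, was also highest in fibroblast-like cells, at 57.9, 71.0 and 155 CPM, against 6.43, 4.50 and 6.41 CPM in smooth muscle-like cells. The log2 fold change was 3.89 ± 0.26 (adjusted p = 2.2e-22 by edgeR) and the classes did not overlap. Endothelial-like cells had 0, 0.562 and 0.603 CPM, against the fibroblast values (-7.43 ± 0.43, adjusted p = 4.2e-10). Near-identical gene copies make the count of Ccl19 uncertain, as they do for Ccl21a and Ccl27a. Cxcl13, the B cell attractant, had 25.7 CPM in fibroblast-like cells, with 131 CPM in the cluster led by Igfbp6 and Apod and 109 CPM in a cluster of 187 cells led by Pi16 and Clec3b. Among classes of at least 50 cells, Cxcl14 was highest in chondrocyte-like cells, at 25.4 CPM, as was Cxcl16, at 71.9 CPM, while the smaller macrophage-like and mesothelial-like classes held Cxcl16 at 287 and 78.1 CPM. Cxcl5, a neutrophil attractant, had 63 of its 71 fibroblast UMIs in a cluster of 37 cells led by Coch and Hhip.

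Fibroblast-like cells of the Pi16 and Fmod types could be compared in the animals of 84 and 88 weeks only. Of 5 tested members 3 were higher and 2 lower in the Pi16 type, where 5.79% of 2712 genes were higher and 4.87% lower. Cxcl12 had 200 and 219 CPM in Pi16 type cells, against 532 and 615 CPM in Fmod type cells (log2 fold change -1.47 ± 0.28, adjusted p = 5.5e-06 by edgeR). Ccl19 had 57.7 and 51.9 CPM in Pi16 type cells, against 105 and 487 CPM in Fmod type cells (-1.96 ± 0.38, adjusted p = 5.8e-06). Neither gene overlapped between the types in these animals. Over cells of every hashtag state, however, Cxcl12 ranged from 170 to 550 CPM in Pi16 type clusters and from 106 to 751 CPM in Fmod type clusters. The highest Fmod type cluster, led by Dcn, Serpinf1 and Lum, held 10 and 8 cells of these animals, with Cxcl12 at 954 and 782 CPM. Ackr3 had 293 and 190 CPM in Pi16 type cells, against 119 and 104 CPM in Fmod type cells (1.12 ± 0.36, adjusted p = 0.020). Ccl11 averaged 280 ± 119 CPM in Pi16 type cells and 125 ± 118 CPM in Fmod type cells (SD, n = 2 animals each) and overlapped between the types (1.33 ± 0.37, adjusted p = 0.0038 by edgeR). The Pi16 type of the animal of 84 weeks had 56 of its 70 cells in a cluster of 90 cells that held Ccr9 at 186 CPM. The same cluster held 15 Pi16 type cells of the animal of 88 weeks, with 4 and 1 in other clusters, so both animals rest mainly on it. Ccr9 was the other member called higher, at 165 and 127 CPM in Pi16 type cells, against 35.0 and 23.2 CPM in Fmod type cells (2.27 ± 0.52, adjusted p = 2.9e-04 by edgeR). The part of T cell RNA in these differences was not tested. DESeq2 called 0 members higher and 1 lower in the same comparison.

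**Figure D4:**
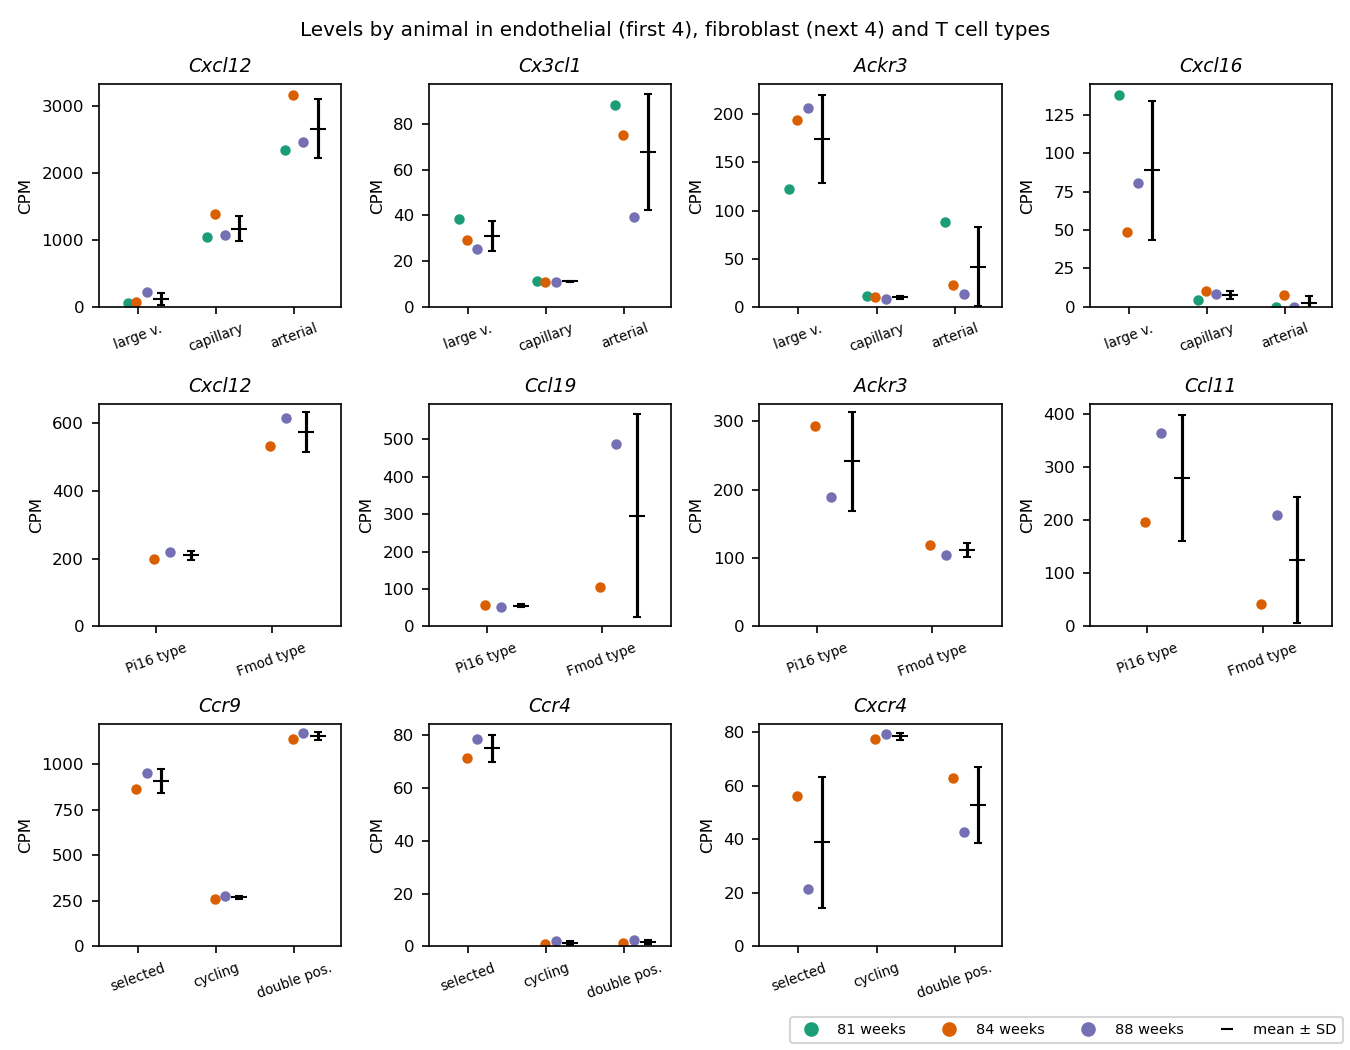
Levels (CPM) by animal in types of endothelial-like (top row), fibroblast-like (middle row) and T cell-like cells (bottom row), with mean ± SD. Arterial type cells held the most Cxcl12, at 2345 to 3158 CPM, and large vessel type cells the least, at 53.6 to 223 CPM.

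Cxcl16 and Cx3cl1 are made as membrane-bound chemokines that can be shed. Cxcl16 had 46.9, 38.8 and 36.6 CPM in fibroblast-like cells, against 1.75, 1.32 and 1.89 CPM in smooth muscle-like cells (log2 fold change 4.44 ± 0.41, adjusted p = 1.0e-15 by edgeR). Endothelial-like cells had 25.1, 19.7 and 31.4 CPM, also above smooth muscle-like cells in every animal (3.84 ± 0.31, adjusted p = 3.5e-07), and lower than fibroblast-like cells by less than 2-fold (-0.70 ± 0.27, adjusted p = 0.049, not called), a difference that was called without cells holding T cell RNA (-1.62, adjusted p = 0.0033). T cell-like cells had 0, 1.33 and 0.559 CPM, against the endothelial values (-4.46 ± 0.43, adjusted p = 6.6e-25). Large vessel type cells had 138, 48.5 and 80.4 CPM, against 4.54, 10.2 and 7.99 CPM in capillary type cells (3.21 ± 0.41, adjusted p = 1.2e-07).

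Cx3cl1 (fractalkine) had 22.6, 18.0 and 19.3 CPM in endothelial-like cells, against 8.77, 6.62 and 10.2 CPM in smooth muscle-like cells, without overlap (log2 fold change 1.16 ± 0.24, adjusted p = 0.0013 by edgeR). This call was lost with hashtags of at least 2-fold the cutoff (0.95, adjusted p = 0.12). Against 5.51, 5.55 and 14.1 CPM in fibroblast-like cells the endothelial values gave 1.36 ± 0.44 (adjusted p = 0.019), a call that was lost without the animal of 81 weeks (adjusted p = 0.063) or of 84 weeks (0.21) and in DESeq2 (0.19), and the difference was 0.09 (adjusted p = 0.96) with the stricter hashtag limit. T cell-like cells had 0, 0.148 and 1.12 CPM, against the endothelial values (-5.65 ± 0.56, adjusted p = 2.3e-23). Capillary type cells had 11.4, 11.0 and 10.7 CPM, against 88.5, 75.2 and 39.2 CPM in arterial type cells (-2.56 ± 0.53, adjusted p = 3.4e-05). Large vessel type cells had 38.3, 29.1 and 25.3 CPM, against the capillary values (1.42 ± 0.46, adjusted p = 0.015), which did not pass without the animal of 81 weeks (adjusted p = 0.060) or in DESeq2 (0.18). Arterial and large vessel type cells were thus each above capillary type cells in all 3 animals.

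Ccl27a, a ligand of Ccr10, was the member led by smooth muscle-like cells. Endothelial-like cells had 11.7, 5.06 and 8.44 CPM, against 33.3, 31.5 and 39.2 CPM in smooth muscle-like cells (log2 fold change -2.17 ± 0.24, adjusted p = 7.5e-06 by edgeR), with no overlap. Against fibroblast-like cells the endothelial values gave -1.48 ± 0.38 (adjusted p = 0.0046), a call lost without the animal of 84 weeks (adjusted p = 0.068) and in DESeq2 (0.073). Fibroblast-like cells had 33.1, 17.8 and 19.7 CPM, against the smooth muscle values, which overlapped in range and was not called at 2-fold (-0.77 ± 0.27, adjusted p = 0.018).

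Ackr2, an atypical receptor that takes up inflammatory CC chemokines, had 8.27, 7.77 and 14.1 CPM (3, 7 and 5 UMIs) in fibroblast-like cells, against 0 UMIs in smooth muscle-like cells of all 3 animals. It was at least 25.1-fold higher against a floor of 3 UMIs over the group (adjusted p = 1.0e-07 by edgeR). It passed the count filter only through these few fibroblast-like UMIs, so the p-value is no support apart from the counts. It was not tested when an animal or the cells holding T cell RNA were left out. Fibroblast-like cells were not its highest class. In 18 lymphatic endothelial-like cells Ackr2 had 15 UMIs, 104 CPM (95% counting interval 58.3 to 172), against 14.7 CPM in all fibroblast-like cells. Of its 142 fibroblast-like UMIs, 74 were in the cluster of 187 cells led by Pi16 and Clec3b.

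Ccr9, the receptor of Ccl25 that is known from developing T cells, was highest in T cell-like cells. It had 363, 520 and 535 CPM in T cell-like cells, against 15.1, 27.0 and 10.3 CPM in endothelial-like cells (log2 fold change 4.59 ± 0.16, adjusted p = 3.2e-170 by edgeR). Fibroblast-like cells had 19.3, 132 and 75.9 CPM, against 4.68, 51.9 and 19.2 CPM in smooth muscle-like cells (1.42 ± 0.21, adjusted p = 1.9e-08), with overlap and with the animal of 84 weeks highest in both. Endothelial-like cells, against the fibroblast values, gave -2.09 ± 0.31 (adjusted p = 3.2e-05), also with overlap. The summed level of 6 T cell genes was 188 CPM in fibroblast-like, 113 CPM in endothelial-like cells and 75.9 CPM in the smooth muscle-like class, against 7025 CPM in T cell-like cells. In cells without a UMI of those genes Ccr9 had 8.22 CPM (39 UMIs) in fibroblast-like, 16.4 CPM (46 UMIs) in endothelial-like and 5.52 CPM (166 UMIs) in smooth muscle-like cells, against 26.1, 17.7 and 10.3 CPM in all cells of these classes. The fibroblast-like and smooth muscle-like difference had too few counts there for the test, with 1, 3 and 1 UMIs in fibroblast-like cells of the 3 animals and 3, 3 and 5 UMIs in smooth muscle-like cells. Ccr9 per UMI of those genes was 0.139 (95% interval 0.121 to 0.158, counting error only) in fibroblast-like, 0.157 (0.124 to 0.197) in endothelial-like and 0.136 (0.124 to 0.148) in smooth muscle-like cells. It was 0.0736 (0.0714 to 0.0757) in T cell-like cells, with 0.111 (0.106 to 0.115) in the double positive type, 0.111 (0.102 to 0.121) in the selected or mature type and 0.0435 (0.0412 to 0.0458) in the cycling type. Of 22133 Ccr9 UMIs in all barcodes, 6863 were in the cells analysed. Whether T cell RNA outside the clustered T cells holds the same ratio was not tested, nor was its part in the Ccr9 of the other classes.

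T cell-like types were compared in the animals of 84 and 88 weeks. Cycling type cells had 262 and 275 CPM of Ccr9, against 1139 and 1168 CPM in double positive type cells (log2 fold change -2.05 ± 0.12, adjusted p = 2.5e-64 by edgeR). Of 4 tested members 0 were higher and 1 lower, where 15.4% of 8901 genes were higher and 9.90% lower. Selected or mature type cells had 71.5 and 78.8 CPM of Ccr4, against 1.20 and 2.25 CPM in double positive type cells, where it rests on 2 and 1 UMIs. The ratio of pooled counts was 51.5, with a 95% counting interval of 16.5 to 259, and the call passed (5.51 ± 0.62, adjusted p = 6.6e-09). It was the 1 member of 4 tested that was higher, with 0 lower, where 5.48% of 5710 genes were higher and 6.13% lower. Its ligands Ccl17 and Ccl22 had 14 and 8 UMIs in all cells analysed, with 6 and 1 of them in the classes where each was highest. Mixed clusters have no class and did not enter that ranking.

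Ccl25 had 2309 UMIs, 5735 CPM, in 26 epithelial-like cells of a cluster led by Tbata, Cd74 and Prss16. The animal of 81 weeks had 0 of those cells, that of 84 weeks 17 and that of 88 weeks 6, with Ccl25 at 4490 CPM in the animal of 84 weeks and 11300 CPM in that of 88 weeks. Few cells held most of it: among all epithelial-like cells, the top 3 had 1248 of 1354 Ccl25 UMIs at 84 weeks and 931 of 959 at 88 weeks. The cluster also held Ackr4, an atypical receptor of Ccl19, Ccl21 and Ccl25, at 216 CPM. Cxcl12 had 506 UMIs there, 1257 CPM, near the 1235 CPM of all endothelial-like cells. Over all epithelial-like cells Cxcl17 had 223 CPM, Ackr4 57.4 CPM, Cx3cl1 25.7 CPM and Cxcl15 23.1 CPM. Ccl21a had 383 of its 468 epithelial-like UMIs in 1 cell. At low level Ccl25 was found in each large class, with 19.4, 26.4 and 23.5 CPM in T cell-like cells, against 13.4, 6.74 and 12.1 CPM in endothelial-like cells (log2 fold change 1.17 ± 0.29, adjusted p = 1.1e-04 by edgeR). DESeq2 did not call that difference (adjusted p = 0.12).

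Cells of classes under 50 cells are described by summed UMIs with exact 95% Poisson intervals, which cover counting error only. In 18 lymphatic endothelial-like cells Ccl21a, a ligand of Ccr7 that draws cells into lymphatics, had 1256 UMIs, 8721 CPM (8245 to 9217). Of these, 1155 UMIs were in 14 cells with no hashtag, and the cells of the animals of 81 weeks (2) and 88 weeks (1) had 0. In 17 NK cell-like cells Ccl5 had 132 UMIs, 1107 CPM (926 to 1313), and Xcl1 had 20 UMIs, 168 CPM (102 to 259). The animal of 84 weeks held 14 of these cells and 127 of the Ccl5 UMIs, with 41 in 1 cell. The NK cell-like cells also held receptors, with Cxcr6 at 151 CPM (89.5 to 239), Ccr2 at 101 CPM (52.0 to 176) and Cxcr3 at 75.5 CPM (34.5 to 143).

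In 31 macrophage-like cells Cx3cr1, the receptor of Cx3cl1, had 49 UMIs, 271 CPM (200 to 358), and Ccl24 had 76 UMIs, 420 CPM (331 to 526). The class fell into clusters that differed in ligands. A cluster of 14 cells led by Lyz2, C1qa and Pf4 held Ccl6 at 1145 CPM, Ccl24 at 907 CPM and Ccl9 at 561 CPM. A cluster of 17 cells led by Cd74 and H2-Aa held Cxcl16 at 494 CPM and Cx3cr1 at 463 CPM. By animal, Cx3cr1 there had 1271, 802 and 146 CPM (2, 4 and 10 cells) and Cxcl16 had 777, 211 and 567 CPM, so the animals differed more than the counting error of the pooled levels. The 102 UMIs of Cxcl2 in the class came from 1 cell.

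**Figure D5:**
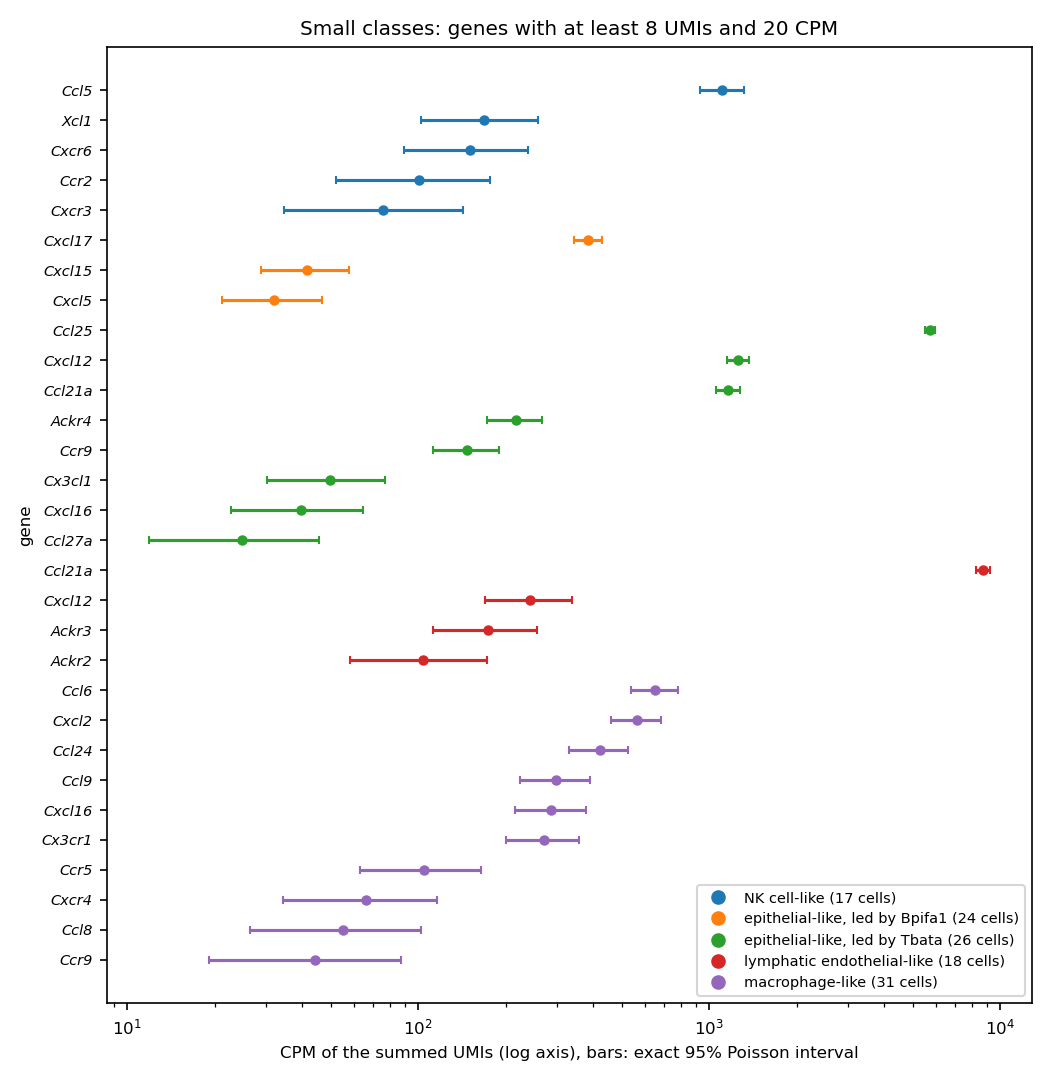
Level (CPM, log axis) of members with at least 8 UMIs and 20 CPM in the small classes and in 2 epithelial-like clusters, with exact 95% Poisson intervals of the summed UMIs. Ccl21a of lymphatic endothelial-like cells lay at 8721 CPM and Ccl25 of the Tbata-led cluster at 5735 CPM.

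Promoter sequences are shown because the ligands fall into those held at steady levels and those induced in inflammation, and an NF-κB site is the textbook element of the second kind. RefSeq (GRCm38.p6) gave a window of 250 bases before to 50 after the start for 42 of the 57 symbols. Below, capitals mark matches to GGG, any 2 bases and TTTCC on either strand, in Cxcl1 (chr5:90890995-90891294, plus strand), Cxcl2 (chr5:90903649-90903948, plus strand), Ccl9 (chr11:83578587-83578886, minus strand) and Cxcl12 (chr6:117168285-117168584, plus strand), which had none.
Cxcl1: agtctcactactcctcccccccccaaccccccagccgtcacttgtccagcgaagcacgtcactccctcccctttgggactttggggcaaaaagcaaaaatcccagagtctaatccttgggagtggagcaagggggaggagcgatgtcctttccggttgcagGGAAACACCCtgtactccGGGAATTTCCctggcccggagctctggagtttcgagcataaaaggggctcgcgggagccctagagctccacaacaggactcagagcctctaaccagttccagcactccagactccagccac
Cxcl2: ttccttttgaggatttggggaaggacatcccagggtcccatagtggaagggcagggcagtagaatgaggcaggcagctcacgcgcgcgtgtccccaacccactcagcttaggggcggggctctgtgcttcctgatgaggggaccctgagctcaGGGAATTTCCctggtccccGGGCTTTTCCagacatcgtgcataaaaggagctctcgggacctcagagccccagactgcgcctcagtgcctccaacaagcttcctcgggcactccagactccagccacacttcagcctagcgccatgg
Ccl9: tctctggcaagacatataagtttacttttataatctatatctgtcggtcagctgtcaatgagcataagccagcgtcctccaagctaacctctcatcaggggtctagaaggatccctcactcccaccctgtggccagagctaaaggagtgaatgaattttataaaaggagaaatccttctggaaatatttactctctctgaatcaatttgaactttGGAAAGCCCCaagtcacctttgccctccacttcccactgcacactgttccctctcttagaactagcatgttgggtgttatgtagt
Cxcl12: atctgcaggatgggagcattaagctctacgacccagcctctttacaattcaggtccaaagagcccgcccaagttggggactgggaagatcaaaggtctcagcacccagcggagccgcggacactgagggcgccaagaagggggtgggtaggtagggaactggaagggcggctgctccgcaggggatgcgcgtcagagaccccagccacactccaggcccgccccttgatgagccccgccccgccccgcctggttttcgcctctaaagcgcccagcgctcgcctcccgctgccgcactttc

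Matches began 89 and 71 bases before the start in Cxcl1, 97 and 78 before it in Cxcl2 and 35 before it in Ccl9. Across the members, 6 of 42 (14.3%) held a match (Ccl20, Cxcl3, Cxcl1, Cxcl2, Ccr3 and Ccl9), against 1.63% of 32851 promoters. The search covered 3 motifs, and the other two lay nearer their background: the RUNX letters TGTGGT were in 11 of 42 members (26.2%), against 16.8% of promoters, and the hypoxia response letters ACGTG in 7 of 42 (16.7%), against 19.6%. The NF-κB motif was singled out for printing after these shares were seen, several of the genes are neighbouring paralogs, and a match is no evidence of binding. Cxcl3 had 0 UMIs in the cells analysed.

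Genes that hold, clip and transduce chemokines were described by lists. Of the retention and clipping genes (heparan sulfate carriers, their enzymes and proteases), 8 of 17 tested were higher and 0 lower in fibroblast-like than in smooth muscle-like cells, with a median log2 fold change of 0.56 against 0.02 over all genes. Of all genes in that comparison 13.1% were higher and 10.8% lower. Dpp4, a protease that clips Cxcl12 and Ccl11, had 74.4, 110 and 70.3 CPM in fibroblast-like cells, against 1.75, 3.71 and 0.754 CPM in smooth muscle-like cells. In endothelial-like against fibroblast-like cells 2 of 16 were higher and 9 lower, with a median of -1.10 against 0.02, where 13.8% of all genes were higher and 15.5% lower. There the heparan sulfate proteoglycan Gpc3 had 4.19, 3.93 and 2.41 CPM in endothelial-like cells, against 328, 335 and 405 CPM in fibroblast-like cells.

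Of the receptor signalling genes, 10 of 18 tested were higher and 3 lower in endothelial-like than in smooth muscle-like cells (median log2 fold change 1.02, all genes 0.00), and 11 of 23 were higher and 6 lower in T cell-like than in endothelial-like cells (0.33, all genes 0.02). Of all genes 16.3% were higher and 16.7% lower in the first comparison, and 21.5% and 26.3% in the second. Rac2, a GTPase of leukocyte migration, had 227, 290 and 280 CPM in T cell-like cells, against 1.67, 3.37 and 2.41 CPM in endothelial-like cells. Of the inducers of chemokine genes, 7 of 17 were higher and 2 lower in endothelial-like than in smooth muscle-like cells (0.71, all genes 0.00). In T cell-like against endothelial-like cells 0 of 17 were higher and 10 lower (-1.46, all genes 0.02). The shares of all genes called are those given above for the same comparisons.

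Of the related genes outside the symbol rule (Mif, Cd74, Rarres2 and others), 3 of 7 tested were higher and 2 lower in endothelial-like than in smooth muscle-like cells (median log2 fold change 0.00, all genes 0.00), and 1 of 6 was higher and 4 lower in T cell-like than in endothelial-like cells (-2.97, all genes 0.02). Of all genes 16.3% were higher and 16.7% lower in the former comparison, and 21.5% and 26.3% in the latter. By the rule for list genes (the 2 called genes of largest change in each list and comparison, at 50 CPM or more), the others reported here are given by log2 fold change ± SE, all called by edgeR. In fibroblast-like over smooth muscle-like cells they were the matrix protease Mmp2 (4.73 ± 0.16), the G protein regulator Rgs5 (-3.49 ± 0.20), the interferon gamma receptor Ifngr1 (1.62 ± 0.15) and the hypoxia factor Hif1a (-1.54 ± 0.16). In endothelial-like over smooth muscle-like cells they were the chemerin gene Rarres2 (-4.29 ± 0.14), the Mif receptor Cd74 (3.44 ± 0.26), Elmo1 (1.67 ± 0.18), Gnai2 (1.23 ± 0.10), Gpc6 (-3.42 ± 0.27), Sdc4 (-3.37 ± 0.14) and Irf1 (3.93 ± 0.20). In endothelial-like over fibroblast-like cells they were Rarres2 (-4.87 ± 0.17), Cd74 (1.96 ± 0.26), Rgs5 (2.31 ± 0.37), Elmo1 (1.32 ± 0.28), Dpp4 (-5.92 ± 0.42) and Irf1 (1.87 ± 0.25). Endothelial-like cells were thus above both smooth muscle-like and fibroblast-like cells of the same animal in Cd74 and Irf1 and below both in Rarres2. For Cd74 the ranges of endothelial-like (45.5 to 166 CPM) and fibroblast-like cells (8.27 to 47.8 CPM) overlapped. Large vessel type cells held 315 of its 434 endothelial-like UMIs, 247 of them in the animal of 88 weeks. Capillary type cells averaged 30.7 CPM of Cd74, against 23.5 CPM in fibroblast-like cells.

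In T cell-like over endothelial-like cells the list genes were Cd74 (-3.08 ± 0.20), the cytokine Mif (1.03 ± 0.12), the actin regulator Coro1a (5.88 ± 0.16), the syndecan Sdc3 (-6.74 ± 0.28), Dpp4 (5.34 ± 0.36), the TNF receptor Tnfrsf1a (-2.31 ± 0.16) and the NF-κB inhibitor Nfkbia (-2.05 ± 0.13). Large vessel over capillary type cells differed in Cd74 (3.56 ± 0.29), Mif (-1.38 ± 0.25), Rgs5 (-4.04 ± 0.45), the arrestin Arrb1 (2.75 ± 0.37), Sdc4 (3.21 ± 0.41) and Sdc3 (-1.87 ± 0.28), and capillary over arterial type cells in Rgs5 (-1.59 ± 0.23). The ranges of Rgs5 overlapped between capillary (88.6, 183 and 121 CPM) and arterial type cells (288, 842 and 144 CPM). Rgs5 is also a marker used to name pericyte-like cells, and the part of pericyte RNA in its differences was not tested. Among T cell-like types, Mif was higher in selected or mature (1.45 ± 0.18) and in cycling (1.95 ± 0.12) than in double positive type cells. Selected or mature over double positive type cells also differed in Gng2 (1.85 ± 0.47), Ptk2b (1.23 ± 0.25), Hs6st1 (-1.98 ± 0.39), Nfkb1 (1.86 ± 0.26) and Ifngr1 (-1.53 ± 0.17), and cycling over double positive type cells in Prex1 (-1.17 ± 0.13), Hs6st1 (-1.44 ± 0.19) and Il4ra (-2.21 ± 0.24). In Pi16 over Fmod type cells they were Coro1a (2.55 ± 0.65), a gene that T cells also express, and Gpc3 (1.44 ± 0.31), while Dpp4 served to name the Pi16 type and is no finding.

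At the other end, 6 symbols had 0 UMIs in the cells analysed (Ccl1, Ccl21b, Ccl21c, Ccl26, Ccl27b and Cxcl3) and 9 had 1 to 10 UMIs. The UMIs of 83 member and class pairs reached 20. In 36 of these under 10% of the UMIs came from 1 cell, and in 6 over 40% did: Ccl5 in smooth muscle-like (38 of 51 UMIs), Ccl2 in fibroblast-like and endothelial-like, Ccl21a and Ccr9 in epithelial-like, and Cxcl2 in macrophage-like cells.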

How the data were processed

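The deposited values are unnormalised UMI counts per gene and barcode, produced by the authors using Cell Ranger 6.0.1 per the file headers. Seurat 4.0.5 and the mm10 genome are given in the submitters' processing notes. Hashtags were called with HTODemux of Seurat 5.3.0 (quantile 0.99). Cells were kept with at least 500 genes, 1000 UMIs and under 15% mitochondrial UMIs (11301 of 26916), and cells with more than 1 hashtag (584) or a Scrublet score among the top 6% were left out (630 doublets before the hashtag filter). The automatic Scrublet threshold marked 1 cell and was not used. The other 10170 cells were clustered with scanpy 1.11.5 (2000 variable genes, 30 components, 15 neighbours, Leiden resolution 0.8), leaving out the members, the gene lists, mitochondrial and ribosomal genes, and named by marker scores, so names can differ from the study's.

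UMIs were summed by class and animal (at least 10 cells) and tested with edgeR 4.0.16 (R 4.3.3), TMM scaling, filterByExpr and the animal as a block. The same number marks the same animal, per the deposited hashtag table. The scripts were tested on simulated data. Alternatives were no block, other size factors, DESeq2 1.42.0, no filter on low counts, each animal left out, 1 fit over all classes, clustering of cells with 1 hashtag, stricter mitochondrial and hashtag limits, no doublet removal, and removal of cells with T cell RNA. Members were named where called in a comparison or at 20 CPM or more in a class of at least 50 cells, and list genes as the 2 called genes of largest change per list and comparison, above 50 CPM in the higher class and moved alike in all animals. Some list genes that meet this rule are not reported here. The promoter motifs were chosen after the data were seen. Members and lists were chosen with earlier results of these data known. Intervals cover counting error only, and p-values rest on 3 animals (2 for the fibroblast and T cell types). The edgeR fit shares its estimate of spread between genes, so very small p-values do not measure the spread among these few animals alone.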

Additional observations from a re-analysis of the deposited data

How the results depend on the processing

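Of 592 member changes recomputed under an alternative, 552 kept their direction and side of the threshold, 23 lost the call, 7 gained one and 10 changed sign, all of changes not called. Ccl25 in endothelial-like over smooth muscle-like cells (0.02) became -0.01 with no filter and in 1 fit over all classes, -0.22 to 0.39 leaving out 1 animal (-0.07 without that of 88 weeks), -0.10 when cells with 1 hashtag were clustered and -0.47 under 10% mitochondrial UMIs. Ccl27a in T cell-like over endothelial-like cells (0.36) became -0.11 in DESeq2 and -0.27 to 0.60 leaving out 1 animal, lowest without that of 84 weeks. With no filter on low counts 22 to 43 members were tested in each comparison, and called counts became 15 higher (fibroblast-like over smooth muscle-like), 9 higher and 2 lower (endothelial-like over smooth muscle-like), 11 lower (endothelial-like over fibroblast-like), 5 higher and 9 lower (T cell-like over endothelial-like), 1 lower (capillary over arterial type), 6 higher (large vessel over capillary type) and 2 higher (selected or mature over double positive type). In those fits 1.19% to 17.2% of all genes were higher and 0.601% to 17.3% lower, with 7.86% higher and 7.55% lower for fibroblast-like over smooth muscle-like cells and 17.2% and 17.3% for T cell-like over endothelial-like cells. Under a hashtag limit of 2 times the cutoff they were 4 higher for fibroblast-like over smooth muscle-like cells, and 1 higher and 3 lower for endothelial-like over fibroblast-like cells. DESeq2 gave 1 higher for endothelial-like over fibroblast-like cells, and 0 higher and 1 lower for Pi16 over Fmod type cells. In the last comparison the fit with no replicate block called 1 higher, and clustering of cells with 1 hashtag and no doublet removal each called 1 lower. In the other comparisons the fit without the block gave 7 higher (fibroblast-like over smooth muscle-like), 4 higher and 1 lower (endothelial-like over smooth muscle-like), 2 higher and 5 lower (endothelial-like over fibroblast-like) and 3 higher and 4 lower (T cell-like over endothelial-like), as with it. Ccr9 in fibroblast-like over smooth muscle-like cells kept its call with a weaker p-value (1.47 ± 0.50, adjusted p = 0.027 without the block, against 1.9e-08 with it, by edgeR). For endothelial-like over smooth muscle-like cells, 1 fit over all classes gave 2 lower and clustering of cells with 1 hashtag gave 3 lower. Without cells holding T cell RNA there was 1 higher for endothelial-like over fibroblast-like cells and 1 lower for capillary over arterial type cells, and 1 fit over all classes also gave 1 lower there. Apart from the lack of a filter, the cause was not tested.

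Leaving out each animal in turn gave 6 to 7 higher and 0 to 1 lower (fibroblast-like over smooth muscle-like), 4 to 6 higher and 1 to 2 lower (endothelial-like over smooth muscle-like), 1 to 2 higher and 5 to 6 lower (endothelial-like over fibroblast-like), 3 to 4 higher and 4 to 6 lower (T cell-like over endothelial-like) and 2 to 4 higher (large vessel over capillary type). It was not run for comparisons of 2 animals. Ccl25 in T cell-like over endothelial-like cells lost its call without the animal of 84 weeks (log2 fold change 0.69, adjusted p = 0.22 by edgeR). Ccr9 in fibroblast-like over smooth muscle-like cells lost it when cells with 1 hashtag were clustered (0.44, adjusted p = 0.11). Cxcl12 in capillary over arterial type cells fell under 2-fold with no filter (-0.96) and without cells holding T cell RNA (-0.98), and in Pi16 over Fmod type cells it lost its call with no doublet removal (-0.72, adjusted p = 0.084). Ccl2 in endothelial-like over fibroblast-like cells gained a call without the animal of 84 weeks (-2.88, adjusted p = 0.0045) and without that of 88 weeks (-1.39, adjusted p = 1.9e-05), but changed sign without that of 81 weeks (1.02, adjusted p = 0.11) and when cells with 1 hashtag were clustered (0.99, adjusted p = 0.086). Cxcl13 in fibroblast-like cells was at 6.18 CPM in cells with 1 hashtag, against 25.7 CPM in all, and Ccl21a in epithelial-like cells at 1511 CPM without cells holding T cell RNA, against 309 CPM in all.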

Other observations

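Among the 31 mixed clusters, which were given no class, Cxcl2 reached 797 CPM in 22 cells led by S100a9. A further mixed cluster of 25 cells led by Igkc, Cd74 and S100a9 held Cxcl2 at 303 CPM, Ccr2 at 201 CPM and Xcr1 at 93.6 CPM. Pericyte-like cells (125 cells) held Cxcl12 at 292 CPM, Ccl11 at 119 CPM and Ccl19 at 78.5 CPM. In 24 epithelial-like cells of a cluster led by Bpifa1 and Scgb1a1, Cxcl17 reached 383 CPM, and 18 of those cells came from the animal of 81 weeks.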
